A study of Homo sapiens with 12 samples.

Results

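The genes of the proteasome were followed across RNA sequencing libraries of HL60, an established line of human acute myeloid leukaemia with promyelocytic features. The members were all protein-coding genes whose symbol begins with PSMA, PSMB, PSMC, PSMD, PSME, PSMF or PSMG and a number, with a mean normalized read count of at least 10 over the 12 libraries. This gave 49 of the 23128 genes tested and of the 57820 genes of the file. A further 2 protein-coding rows, second entries for PSMA1 and PSMA2, fell below the minimum, and 30 rows with such symbols were pseudogenes. By role the members were 8 alpha subunits, 7 constitutive and 3 inducible beta subunits, 1 thymus beta subunit, 6 ATPases, 14 PSMD genes, 4 activators, 1 inhibitor, 4 assembly chaperones and PSMC3IP. PSMC3IP, a meiotic recombination factor that binds the ATPase PSMC3, matched by name and is not a proteasome subunit.

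The proteasome degrades proteins that carry ubiquitin chains. Its core particle is a barrel of alpha and beta rings, in which the alpha rings gate the entrance and the catalytic beta subunits cut the substrate. The regulatory particle caps the barrel: its lid and base recognise and remove ubiquitin, and a ring of ATPases unfolds the substrate and feeds it in. Myeloid and lymphoid cells also make inducible catalytic subunits, which replace the constitutive ones in the immunoproteasome and shape the peptides presented on MHC class I.

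The study set HL60 cells that carried a vector for doxycycline-dependent expression of TFEB S211A, a mutant form of a transcription factor of lysosomal and autophagy genes, beside cells that carried the empty vector (EV). The vectors are labelled pRRL-TFEBS211A-puro and pRRL-EV-puro, and all cells grew in RPMI-1640 medium with fetal bovine serum. The groups were TFEB-Dox, the TFEB S211A vector with doxycycline (1 µg/ml, 48 h), TFEB-Veh, the same vector with vehicle, EV-Dox, the empty vector with doxycycline, and EV-Veh, the empty vector with vehicle, with 3 biologically independent experiments each. The labels do not say whether a transduced line was a clone or a pool, and the treatment text lists doxycycline for every sample, so the vehicle groups rest on the sample titles and on the treatment field.

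TFEB read 17468, 22629 and 14470.4 in TFEB-Dox, 105, 118 and 149 in TFEB-Veh, 127, 83.9 and 79.8 in EV-Dox and 129, 196 and 110.4 in EV-Veh, so that only the induced libraries stood apart, as labelled. Recovered reads per library ranged from 4474007 (EV-Dox replicate 3) to 22488047 (EV-Veh replicate 2). These 2 libraries also stood apart in the median log2 deviation of 7290 expressed nuclear genes (mean at or above 200), at -1.68 and 1.14, against -0.68 to 0.86 in the other libraries. The deposited scale therefore did not put expressed genes at one level. For this reason the counts of members called are also given after dividing each library by the median ratio of those expressed genes, here called expressed-gene scaling. Values with no scaling named are on the deposited scale. The 6 promyelocytic markers MPO, ELANE, AZU1, PRTN3, CD33 and MYB were present in all libraries, with summed values of 7680 to 10812 in TFEB-Dox, 50015 to 97289 in TFEB-Veh, 4982 to 29793 in EV-Dox and 67911 to 220612 in EV-Veh. The 4 monocyte and macrophage markers CD14, CSF1R, CD68 and MARCO summed to 7403 to 11055 in TFEB-Dox, against 289 to 349 in TFEB-Veh, 248 to 813 in EV-Dox and 285 to 494 in EV-Veh, and no marker of either list was at 0 throughout a group. The 4 lymphoid markers summed to at most 129.9, the 4 erythroid ones to at most 43.4 and the 4 fibroblast and epithelial ones to at most 301 in any library. Mitochondrial genes took 13.3 to 17.9% of the reads in TFEB-Dox, 23.8 to 29.4% in TFEB-Veh, 26.2 to 33.1% in EV-Dox and 21.0 to 26.5% in EV-Veh. The promyelocytic sum was thus lower in both doxycycline groups than in the vehicle groups. In TFEB-Dox the monocyte and macrophage sum was highest and the mitochondrial share lowest. Their part in the results below was not tested. In bulk RNA, a change in the cells present and a change in RNA per cell cannot be told apart.

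The 49 members took a larger share of the reads in TFEB-Dox than in any control group. They held 0.463, 0.535 and 0.521% of all reads in the TFEB-Dox libraries, against 0.232, 0.270 and 0.268% in TFEB-Veh, 0.220, 0.206 and 0.190% in EV-Dox and 0.258, 0.289 and 0.283% in EV-Veh. As a share of the reads of nuclear genes the values averaged 0.603 ± 0.0411% in TFEB-Dox, 0.350 ± 0.0315% in TFEB-Veh, 0.295 ± 0.00993% in EV-Dox and 0.363 ± 0.0111% in EV-Veh (SD, n = 3 each). A large part of the excess lay in PSMA7 and PSMD8. Without them the members' share of nuclear reads was 0.419 ± 0.0577% in TFEB-Dox, 0.322 ± 0.0298% in TFEB-Veh, 0.273 ± 0.00583% in EV-Dox and 0.335 ± 0.0135% in EV-Veh (SD, n = 3 each). The lowest TFEB-Dox library, at 0.353%, then lay just above the highest control library, at 0.352%. By role, the PSMD genes with PSMD8 included held 0.240 to 0.275% of nuclear reads in TFEB-Dox, against 0.0977 to 0.116% in TFEB-Veh. Much of this gap lay in PSMD8, whose normalized read count averaged 18884 in TFEB-Dox and 1578 in TFEB-Veh. The inducible beta subunits held 0.0140 to 0.0165% in TFEB-Dox and 0.0155 to 0.0173% in TFEB-Veh.

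**Figure D1:**
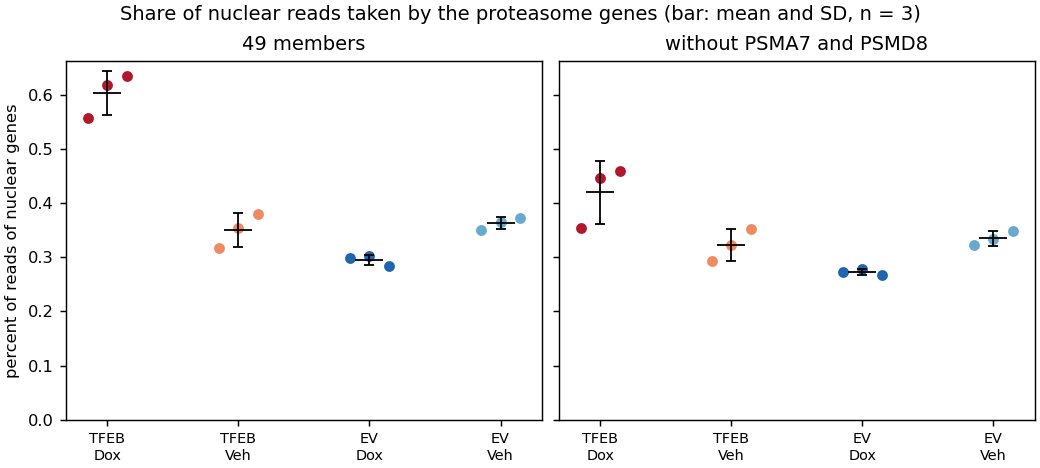
Share of the reads of nuclear genes (percent) held by the 49 members, left, and by the same genes without PSMA7 and PSMD8, right. Points are libraries, bars the mean and SD of 3. The 3 TFEB-Dox libraries lie between 0.556 and 0.634% in the left panel, above every control library, and reach down to 0.353% in the right panel.

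TFEB-Dox was first set against TFEB-Veh, the same cells without the inducer. On the deposited scale 23 of 49 members rose and 1 fell, by limma with an adjusted p under 0.05. The 1 that fell was PSMC3IP, which is not a proteasome subunit. Among all genes tested, 17.4% were called higher and 4.66% lower in this comparison. Of the 40 members with a mean of at least 200, 22 rose and 0 fell. Among the 7290 expressed nuclear genes, 2299 and 256 were called. The median log2 difference was 1.29 over the members, 0.73 over the 7290 expressed nuclear genes and -0.00 over all genes tested. The count of 23 rested on a few libraries: it was 8 without TFEB-Veh replicate 1, 9 without TFEB-Dox replicate 2 and 13 without TFEB-Dox replicate 3. On expressed-gene scaling, among the 40 members with a mean of at least 200, 27 rose and 7 fell, where 34.4% and 33.2% of the 7290 expressed genes were called higher and lower. The median was then 0.70 over these 40 members and -0.02 over the expressed genes, and leaving out 1 library at a time gave 21 to 28 members higher and 7 to 9 lower among all 49.

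The alpha subunit PSMA7 had the largest difference of all members. Its normalized read count was 8868, 10161 and 7772 in TFEB-Dox, against 300.4, 594 and 654 in TFEB-Veh, 421, 302 and 93.3 in EV-Dox and 651, 1323 and 502 in EV-Veh. Every TFEB-Dox library exceeded every control library, by 18.1-fold over TFEB-Veh in the fit, a log2 difference of 4.18 (SE 0.55, limma adjusted p = 5.28e-08) on the deposited scale and 3.43 (SE 0.17) on expressed-gene scaling. The other alpha subunits, which form the same ring, moved less. PSMA4 and PSMA1 rose by 1.39 and 1.29 on the log2 scale, while PSMA3 (0.98), PSMA5 (0.94), PSMA2 (0.21) and PSMA6 (0.15) were not called. PSMA6 had 72.3, 130.2 and 83.2 in TFEB-Dox, against 68.5, 106 and 78.5 in TFEB-Veh, and the groups overlapped. On expressed-gene scaling the estimates for PSMA2 and PSMA6 turned to -0.53 and -0.59, again without a call. PSMA2, with a mean of 83.1, overlaps MRPL32 on the opposite strand, with a mean of 506 and no call (0.07). PSMA8, a testis form of PSMA7, lay near background, at 13.7 to 43.9 in all 12 libraries. The file lists pseudogenes named after PSMA2, PSMA6, PSMB3, PSMB7, PSMC1, PSMD4, PSMD7, PSMD10 and PSME2, and the counts of these genes are uncertain where reads could go to either copy.

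Among the constitutive beta subunits, PSMB7 and PSMB6, catalytic subunits of the trypsin-like and caspase-like sites, rose most, and PSMB5, of the chymotrypsin-like site, was not called. PSMB7 had 5715, 10973 and 8613 in TFEB-Dox, against 844, 1506 and 2038 in TFEB-Veh, 935, 595 and 313 in EV-Dox and 1911, 3139 and 1556 in EV-Veh. No control library reached the lowest TFEB-Dox library, and the log2 difference from TFEB-Veh was 2.57 (SE 0.56, limma adjusted p = 4.31e-04), or 1.82 (SE 0.15) on expressed-gene scaling. PSMB6 had 391, 726 and 579.7 in TFEB-Dox, against 84.9, 155 and 165 in TFEB-Veh, 111, 83.0 and 28.7 in EV-Dox and 155, 305 and 172 in EV-Veh, which again separated TFEB-Dox from all controls, with a log2 difference of 2.07 (SE 0.43, limma adjusted p = 2.43e-04). PSMB5 had 137, 300.2 and 284 in TFEB-Dox, against 123, 173 and 184 in TFEB-Veh, 110.4, 88.1 and 35.0 in EV-Dox and 178, 372 and 159.8 in EV-Veh. Its TFEB-Dox and TFEB-Veh libraries overlapped, and the log2 difference was 0.52 (SE 0.42, limma adjusted p = 0.414) on the deposited scale and -0.22 on expressed-gene scaling. The structural subunits PSMB2 and PSMB3 rose by 1.54 and 1.55, whereas PSMB1 (1.34) and PSMB4 (1.10) were not called. PSMB1 was called on expressed-gene scaling (0.59). PSMB4 had 737 in TFEB-Dox replicate 1, below TFEB-Veh replicates 2 and 3.

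**Figure D2:**
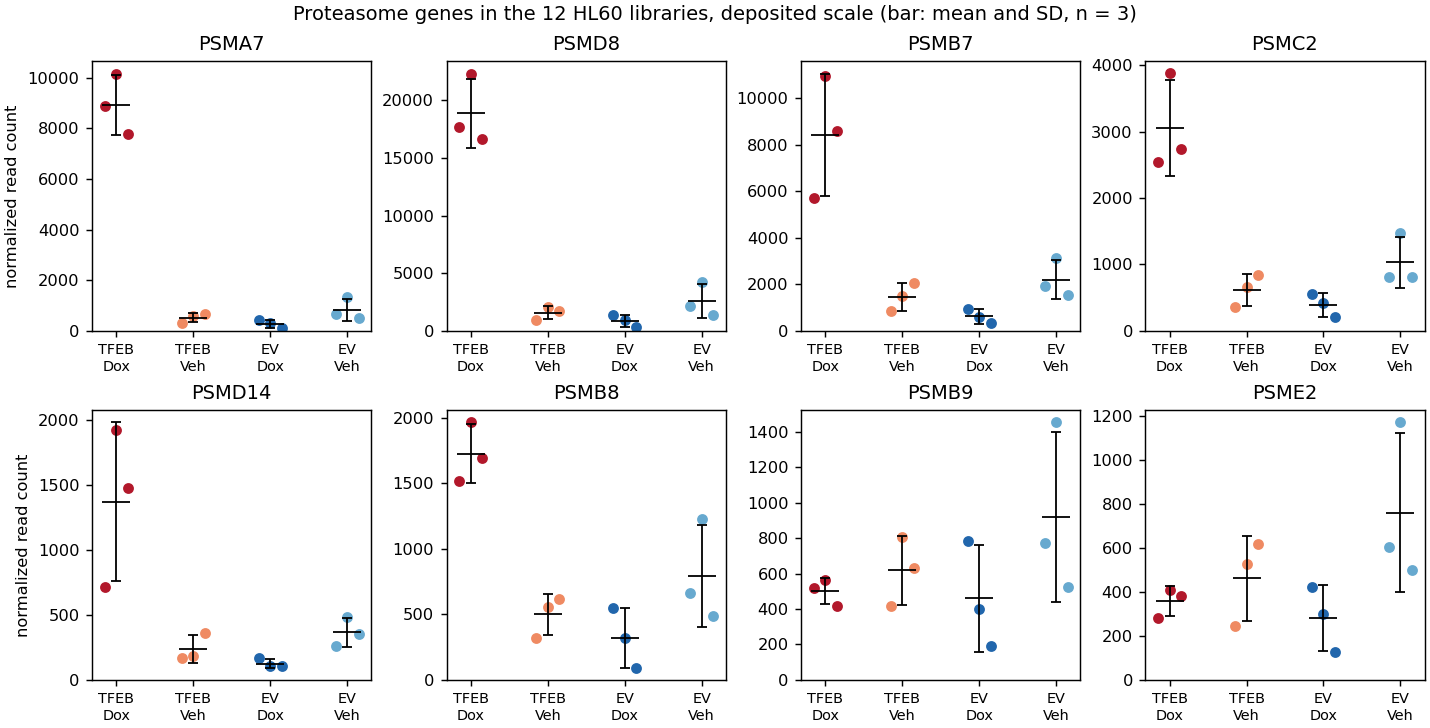
Normalized read counts (deposited scale) of 8 proteasome genes in the 12 libraries; points are libraries, bars the mean and SD of 3, and each panel has its own axis from 0. PSMA7, PSMD8, PSMB7, PSMC2, PSMD14 and PSMB8 were higher in every TFEB-Dox library than in any control library, and PSMB9 and PSME2 were not.

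The 3 inducible beta subunits did not move together. PSMB8, which replaces PSMB5, had 1519, 1966 and 1693 in TFEB-Dox, against 321, 558 and 619.8 in TFEB-Veh, 546, 321 and 86.1 in EV-Dox and 660.3, 1229.8 and 483 in EV-Veh. Its TFEB-Dox libraries lay above all others and it rose by 1.83 (SE 0.54, limma adjusted p = 0.00994) on the log2 scale, and by 1.08 on expressed-gene scaling. PSMB9, which replaces PSMB6, had 519.7, 564 and 418 in TFEB-Dox, against 415, 806 and 634 in TFEB-Veh, 786, 400.1 and 193 in EV-Dox and 775, 1458 and 525 in EV-Veh. The TFEB-Dox values fell within the range of the controls, with a log2 difference of -0.26 (SE 0.51, limma adjusted p = 0.759) that became -1.01 (SE 0.17, limma adjusted p = 1.18e-04) on expressed-gene scaling. PSMB10, which replaces PSMB7, had 115, 124 and 99.1 in TFEB-Dox, against 70.3, 117 and 88.4 in TFEB-Veh, 109, 81.4 and 30.5 in EV-Dox and 107, 282 and 83.3 in EV-Veh, with overlapping groups and no call on either scale (0.31 and -0.43). PSMB8 and PSMB9 overlap on opposite strands, both overlap PSMB8-AS1, and PSMB9 also overlaps TAP1 on the opposite strand. PSMB10 shares its strand with the overlapping gene AC040162.1, which rose by 2.69 on the log2 scale. Whether the counting used strand is not given in the sources, so reads of such neighbours cannot be told apart. PSMB11, the beta subunit of thymus epithelium, lay between 7.34 and 24.2 in all libraries.

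Ratios within a library do not depend on how libraries are scaled, apart from the pseudocount of 1 in the log2 ratios. The ratio of PSMB8 to PSMB5 was 11.1, 6.55 and 5.97 in TFEB-Dox, against 2.61, 3.23 and 3.37 in TFEB-Veh, 4.95, 3.65 and 2.46 in EV-Dox and 3.71, 3.31 and 3.02 in EV-Veh. It was higher in every TFEB-Dox library than in any control library, with a log2 difference from TFEB-Veh of 1.31 (exact permutation test, two-sided, p = 0.1, adjusted over 6 tests 0.15). The ratio of PSMB9 to PSMB6 went the other way. It was 1.33, 0.776 and 0.722 in TFEB-Dox, against 4.88, 5.20 and 3.84 in TFEB-Veh, 7.07, 4.82 and 6.72 in EV-Dox and 5.02, 4.77 and 3.04 in EV-Veh. The log2 difference between TFEB-Dox and TFEB-Veh was -2.33 (exact permutation p = 0.1, adjusted 0.15), and no TFEB-Dox library reached the lowest control. The ratio of PSMB10 to PSMB7 was 0.0202, 0.0113 and 0.0115 in TFEB-Dox and 0.0833, 0.0779 and 0.0434 in TFEB-Veh, also without overlap, a log2 difference of -2.25 (exact permutation p = 0.1, adjusted 0.15). With 3 libraries against 3, 0.1 is the smallest two-sided p these tests can give, so none could pass 0.05. Between EV-Dox and EV-Veh the same 3 log2 ratios differed by 0.08, 0.53 and 0.86 (exact permutation p = 0.9, 0.2 and 0.1, adjusted 0.9, 0.24 and 0.15), the last of them without overlap between the groups.

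**Figure D3:**
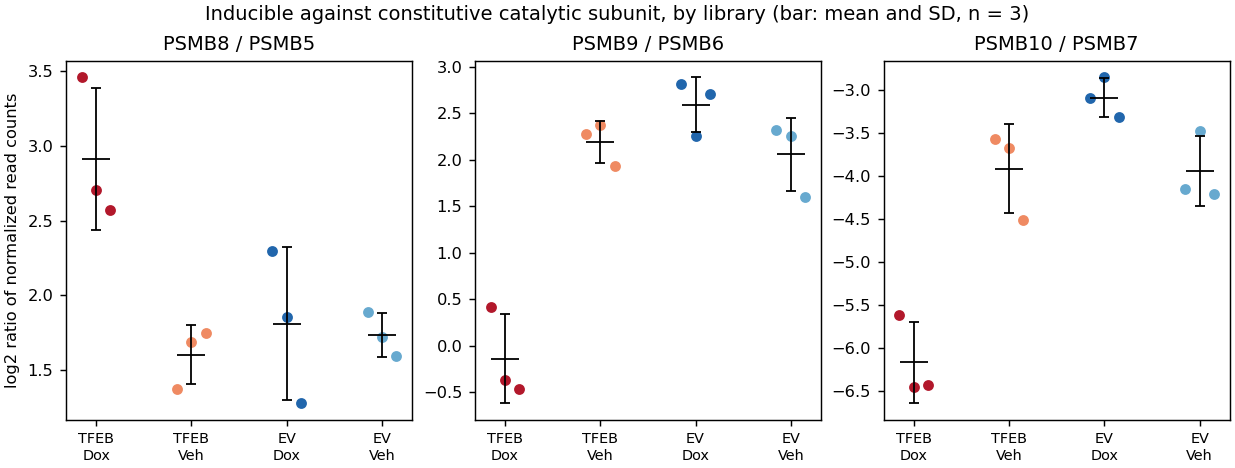
Log2 ratio of the normalized read counts of each inducible catalytic subunit to the constitutive one it replaces, by library; bars are the mean and SD of 3. The TFEB-Dox libraries lie above the TFEB-Veh libraries for PSMB8 to PSMB5 and below them for PSMB9 to PSMB6 and PSMB10 to PSMB7.

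In the regulatory particle, 4 of the 6 ATPases and 10 of the 14 PSMD genes rose by limma on the deposited scale. Called higher in this comparison were 17.4% of all genes and 2299 of the 7290 expressed nuclear genes. The lowest log2 differences were 0.15 (PSMC5) and 0.22 (PSMD9). PSMC2 had 2538, 3882 and 2738 in TFEB-Dox, against 355, 659.6 and 833 in TFEB-Veh, 548, 412 and 202 in EV-Dox and 815, 1479 and 811 in EV-Veh. All TFEB-Dox libraries were above all others, and the log2 difference from TFEB-Veh was 2.37 (SE 0.52, limma adjusted p = 4.70e-04) or, on expressed-gene scaling, 1.62 (SE 0.13). PSMC4 had 1226, 2645 and 1915 in TFEB-Dox, against 314, 555 and 703 in TFEB-Veh, 337, 279 and 114 in EV-Dox and 594, 1347 and 583 in EV-Veh, so that TFEB-Dox replicate 1 lay below EV-Veh replicate 2, and rose by 1.89 over TFEB-Veh. PSMC1 and PSMC6 rose by 1.53 and 1.45. PSMC3 (0.91) and PSMC5 were not called. PSMC5 had 776, 1172 and 826 in TFEB-Dox, against 551, 1028 and 967 in TFEB-Veh, 851, 478 and 243 in EV-Dox and 1163, 2208 and 858 in EV-Veh, so that TFEB-Dox overlapped each control group while EV-Dox lay below EV-Veh without overlap. Its log2 difference from TFEB-Veh was 0.15 (SE 0.52, limma adjusted p = 0.87) on the deposited scale and -0.60 (SE 0.12, limma adjusted p = 8.04e-04) on expressed-gene scaling. PSMC2 overlaps DNAJC2 and PSMC5 overlaps FTSJ3 on the opposite strand, and neither neighbour was called (0.81 and 0.06).

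PSMD8, a lid subunit, had the second largest difference of all members. It had 17662, 22320.1 and 16671 in TFEB-Dox, against 956, 2081 and 1696 in TFEB-Veh, 1381, 887 and 344 in EV-Dox and 2158, 4235 and 1355 in EV-Veh. The lowest TFEB-Dox library lay far above the highest control library, EV-Veh replicate 2, and the log2 difference from TFEB-Veh was 3.64 (SE 0.58, limma adjusted p = 3.55e-06), or 2.89 (SE 0.16) on expressed-gene scaling. PSMD14, the deubiquitinase that removes ubiquitin chains from the substrate, had 714, 1922 and 1477 in TFEB-Dox, against 169, 181 and 362 in TFEB-Veh, 167, 103 and 102 in EV-Dox and 259, 483 and 352 in EV-Veh. TFEB-Dox replicate 1 lay well under the other 2 libraries of its group but above every control, and the log2 difference was 2.5 (SE 0.46, limma adjusted p = 3.69e-05). PSMD7, its binding partner in the lid, had 2345, 5923 and 4472 in TFEB-Dox, against 528, 936 and 1773 in TFEB-Veh, 622, 398 and 321 in EV-Dox and 1185, 2196 and 1436 in EV-Veh and rose by 2.05 (SE 0.55, limma adjusted p = 0.00425), with all TFEB-Dox libraries again highest. Of the large base subunits, PSMD2, a docking platform for ubiquitin carriers, had 2156, 4649 and 3376 in TFEB-Dox, against 379, 712 and 793 in TFEB-Veh, 519.6, 377 and 215 in EV-Dox and 774, 1532 and 792 in EV-Veh. Here too no control reached TFEB-Dox, and the log2 difference was 2.43 (SE 0.52, limma adjusted p = 3.52e-04). PSMD1, the other large base subunit, had 1105, 2686 and 1833 in TFEB-Dox, against 331, 528 and 557 in TFEB-Veh, 457, 328 and 203 in EV-Dox and 597, 1178 and 662 in EV-Veh. TFEB-Dox replicate 1 overlapped EV-Veh replicate 2, and the gene rose by 1.93 over TFEB-Veh. The lid subunit PSMD12 had 1507, 2821 and 2082 in TFEB-Dox, against 434, 756 and 801 in TFEB-Veh, 597, 337 and 235 in EV-Dox and 1007, 1625 and 768 in EV-Veh and rose by 1.69, also with an overlap of TFEB-Dox replicate 1 and EV-Veh replicate 2.

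The lid subunits PSMD6, PSMD11 and PSMD13 rose by 1.65, 1.58 and 1.46, and PSMD3 (1.35) and the ubiquitin receptor PSMD4 (1.09) were not called on the deposited scale. PSMD5, PSMD9 and PSMD10 are chaperones that assemble the base rather than subunits. PSMD10 rose by 1.52, PSMD5 had a difference of 0.52 without a call, and PSMD9 had 91.2, 85.0 and 58.7 in TFEB-Dox, against 78.5, 62.7 and 58.6 in TFEB-Veh, 60.3, 68.8 and 50.2 in EV-Dox and 86.6, 80.3 and 75.5 in EV-Veh. Its TFEB-Dox values overlapped those of each control group, while EV-Dox lay below EV-Veh without overlap. The log2 difference from TFEB-Veh was 0.22 (SE 0.30, limma adjusted p = 0.661) on the deposited scale and -0.52 on expressed-gene scaling. PSMD9, with a mean of 71.4, shares its strand with the overlapping gene WDR66, with a mean of 109.7 and no call (-0.58). On expressed-gene scaling PSMD3 was also called (0.60), which made 11 of 14 PSMD genes higher.

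The activators, the inhibitor and the assembly chaperones divided. PSME4, which caps the barrel without ATP, had 1158, 2122 and 1534 in TFEB-Dox, against 382, 657 and 664 in TFEB-Veh, 509, 421 and 227 in EV-Dox and 736, 1389 and 779.7 in EV-Veh. TFEB-Dox replicate 1 lay below EV-Veh replicate 2, and the gene rose by 1.5 (SE 0.50, limma adjusted p = 0.0246). PSME3, the nuclear activator, had 2728, 3779 and 2829 in TFEB-Dox, against 1001, 1895 and 1762 in TFEB-Veh, 1093, 835 and 363 in EV-Dox and 2049, 4329.9 and 1814 in EV-Veh. Its TFEB-Dox libraries lay above those of TFEB-Veh but not above EV-Veh replicate 2, and it was not called on the deposited scale (1.04) but rose on expressed-gene scaling, by 0.29 (SE 0.11, limma adjusted p = 0.0478). PSME1 and PSME2 form the interferon-inducible activator of the immunoproteasome. PSME1 had 1317, 2140.0 and 1666 in TFEB-Dox, against 733, 1691 and 1731 in TFEB-Veh, 1283, 975 and 486 in EV-Dox and 1791, 3363 and 1505 in EV-Veh. PSME2 had 279, 409 and 380.4 in TFEB-Dox, against 244, 524 and 616 in TFEB-Veh, 422, 299 and 124 in EV-Dox and 605, 1172 and 499 in EV-Veh. For both the TFEB-Dox values overlapped those of TFEB-Veh, and on the deposited scale neither passed (0.38 and -0.29). On expressed-gene scaling both fell, by 0.37 (limma adjusted p = 0.0406) and 1.03 (limma adjusted p = 6.25e-05) on the log2 scale. PSME2 overlaps RNF31 on the opposite strand, which was not called (0.09). The inhibitor PSMF1 had 2151, 3653 and 2325 in TFEB-Dox, against 749.7, 1445 and 1476 in TFEB-Veh, 1051, 657 and 309 in EV-Dox and 1510.2, 2875 and 1226 in EV-Veh. Its TFEB-Dox libraries lay above those of TFEB-Veh but not all above EV-Veh replicate 2, with log2 differences of 1.17 (not called) on the deposited scale and 0.42 (called) on expressed-gene scaling.

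The chaperones PSMG1 to PSMG4 build the alpha ring, PSMG1 together with PSMG2 and PSMG3 with PSMG4. On the deposited scale limma called none of them, with log2 differences of 1.09, 0.11, -0.68 and -0.37 from PSMG1 to PSMG4. PSMG1 had 1291, 1698 and 1249 in TFEB-Dox, against 412, 782 and 888 in TFEB-Veh, 368, 276 and 129 in EV-Dox and 964, 1796 and 704 in EV-Veh. PSMG3 had 105, 182 and 132 in TFEB-Dox, against 123, 248 and 343 in TFEB-Veh, 121, 107 and 80.7 in EV-Dox and 269, 493 and 245 in EV-Veh. PSMG1 was higher in all TFEB-Dox libraries than in TFEB-Veh, and PSMG3 overlapped. On expressed-gene scaling PSMG1 rose by 0.34, while PSMG2, PSMG3 and PSMG4 fell by 0.64, 1.43 and 1.11 on the log2 scale. PSMG2 overlaps SPIRE1 on the opposite strand, which rose by 3.81 on the deposited scale. PSMC3IP had 56.6, 90.4 and 72.2 in TFEB-Dox, against 145, 174 and 225 in TFEB-Veh, 149, 96.5 and 72.6 in EV-Dox and 254, 412 and 231 in EV-Veh. It was the 1 member that fell on the deposited scale, by 1.30 (SE 0.37, limma adjusted p = 0.00779) on the log2 scale. Its TFEB-Dox libraries lay below those of TFEB-Veh without overlap but overlapped EV-Dox. It overlaps MLX on the opposite strand, which rose by 2.93. Of all 49 members, 30 either overlapped at least 1 other gene of GENCODE 29 or, as PSMB3, were not matched in that release. For 11 members an overlapping gene had a mean of at least 50% of the member's own. The release may not be the authors'.

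**Figure D4:**
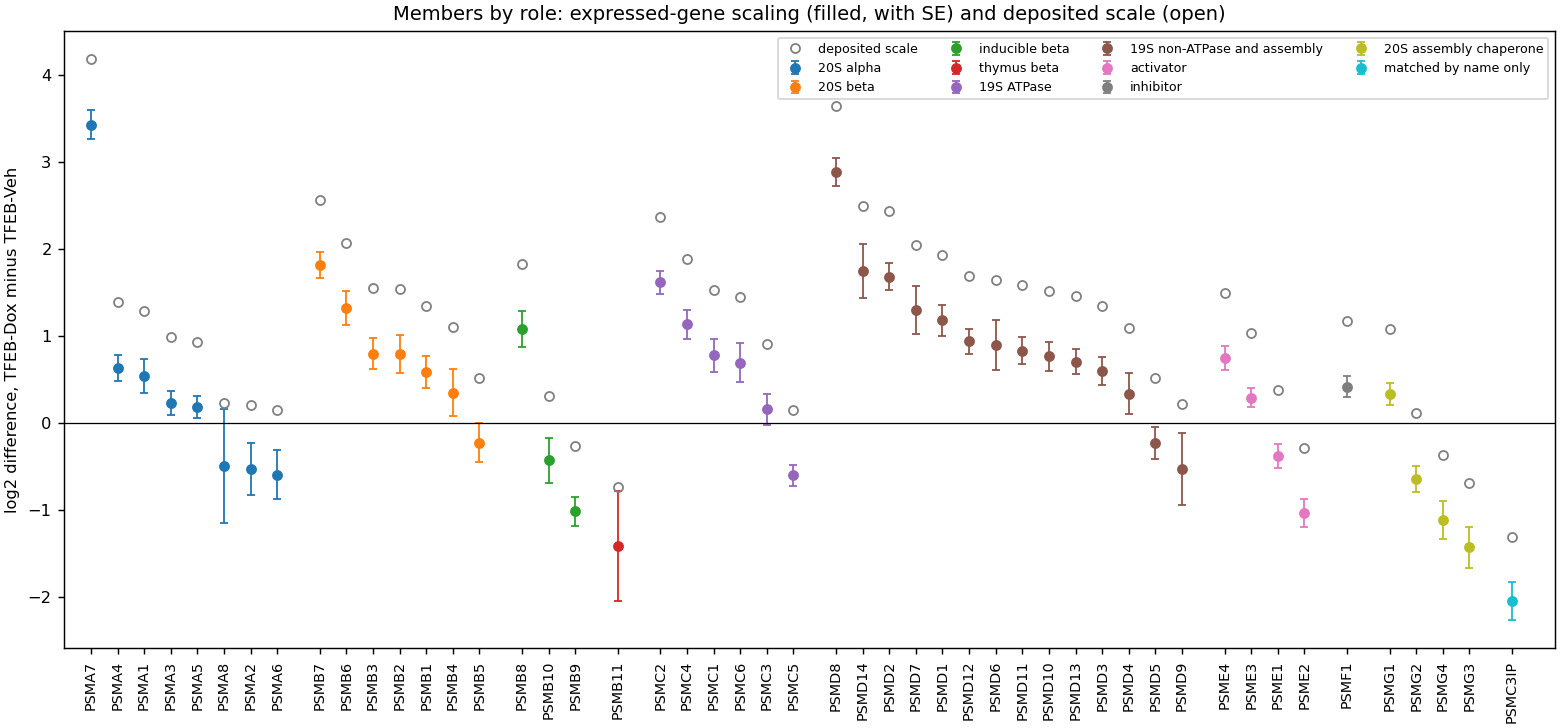
Log2 difference, TFEB-Dox minus TFEB-Veh, for the 49 members grouped by role; filled points with SE are on expressed-gene scaling and open points on the deposited scale. PSMA7 (3.43) and PSMD8 (2.89) lie far above the rest on expressed-gene scaling, and most constitutive subunits lie above 0. Called lower on this scaling were PSMB9, PSMC3IP, PSMC5, PSME1, PSME2, PSMG2, PSMG3 and PSMG4. Members below 0 without a call include PSMA2, PSMA6 and PSMB5.

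The transcription factor NFE2L1, which drives proteasome genes when proteasome activity is short, binds the antioxidant response element with small MAF proteins, whereas TFEB binds the CLEAR element. Windows from 250 bases before to 50 after the RefSeq gene starts (GRCh38.p14) were read for 43 of the 49 members. PSMA7, PSMB1, PSMB6, PSMB7, PSMD4 and PSMG3 had no match in the table. The response element core TGACNNNGC, on either strand, was in a window of 15 of these 43 members (34.9%), against 16.1% of the 27305 genes with a window. Counted by window it was in 15 of 53 (28.3%), against 13.3% of 35116. Of the 15 members, 6 rose and 0 fell by limma on the deposited scale between TFEB-Dox and TFEB-Veh. On expressed-gene scaling 8 of them rose and 5 fell, and the median log2 difference was 0.34 for members with the core and 0.48 for members without it. The CLEAR core TCACGTGA was in 0 of 53 member windows, against 0.980% of all windows. At that share 53 windows are too few for the 0 to set the members apart. The members without a window, PSMA7, PSMB6 and PSMB7 among them, were not read. The shorter E-box CACGTG, which lies within the CLEAR core, was in 3 members (PSMB3, PSMD9 and PSME3), 6.98%, against 8.77% of all genes.

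The bases before the start are shown for 4 members with the core, 3 that rose on expressed-gene scaling (PSMB3, PSMD12 and PSMD3) and 1 that fell (PSME2), and for PSMD8, which had the largest difference of the members with a window. They are written 5′ to 3′ on the strand of the gene, and the capitals mark the match to TGACNNNGC.
PSMB3, chr17:38752592-38752690, + strand: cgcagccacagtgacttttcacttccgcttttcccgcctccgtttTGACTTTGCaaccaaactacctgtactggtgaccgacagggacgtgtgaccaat
PSMD12, chr17:67366689-67366787, - strand: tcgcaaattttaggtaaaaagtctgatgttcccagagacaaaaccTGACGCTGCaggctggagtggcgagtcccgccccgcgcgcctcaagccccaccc
PSMD3, chr17:39980725-39980806, + strand: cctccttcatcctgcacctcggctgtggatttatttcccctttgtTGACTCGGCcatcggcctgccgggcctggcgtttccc
PSME2, chr14:24146732-24146830, - strand: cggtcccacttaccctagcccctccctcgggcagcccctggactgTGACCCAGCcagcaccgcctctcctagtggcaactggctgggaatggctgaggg
PSMD8, chr19:38374471-38374570, + strand: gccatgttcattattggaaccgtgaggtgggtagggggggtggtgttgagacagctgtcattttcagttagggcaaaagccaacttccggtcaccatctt
No match lay in the PSMD8 window, which says only that these letters are not in it. Relative to the gene start, the marked core lay at -104 to -96 in PSMB3, at -165 to -157 in PSMD12, at -37 to -29 in PSMD3 and at -175 to -167 in PSME2. The match stood in members that moved in opposite directions, and a match of letters does not show that a site is bound.

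The comparisons with the empty vector line share the TFEB-Dox libraries with the comparison above. Against EV-Dox, which shares the drug, 34 of 49 members were higher and 0 lower on the deposited scale. Among all genes tested, 27.2% and 5.37% were called higher and lower. Of the 40 members with a mean of at least 200, 32 were higher and 0 lower. Among the 7290 expressed genes, 4068 and 50 were called. At an unadjusted p under 0.05, 1 member was lower by limma, and edgeR on recovered reads called 34 higher and 0 lower. All 7 constitutive beta subunits were among the 34, led by PSMB7 at 3.86 (SE 0.56) on the log2 scale. PSMA7 and PSMD8 reached 5.28 (SE 0.55) and 4.64 (SE 0.58). Against EV-Veh, 7 were higher and 2 lower, PSMC3IP and PSMG3, where 12.2% and 8.51% of all genes were called. The 7 were PSMA7 (3.55), PSMD8 (3.02), PSMB7 (1.95), PSMD14 (1.84), PSMD2 (1.72), PSMC2 (1.59) and PSMB6 (1.44). Of the 40 members with a mean of at least 200, 7 were higher and 1 lower. Among the 7290 expressed genes, 1280 and 728 were called, so the members' share called higher was near that of the expressed genes. On expressed-gene scaling, 30 of the 40 members with a mean of at least 200 were higher than in EV-Dox and 6 lower, where 36.4% and 35.4% of the 7290 expressed genes were called higher and lower. Of all 49 members, 31 were then higher and 12 lower, where 14.2% and 57.6% of all genes tested were called. Against EV-Veh on this scaling, 25 of the 40 were higher and 7 lower, where 34.6% and 33.3% of expressed genes were called, and 25 and 8 of all 49, where 15.9% and 16.2% of all genes tested were called.

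The same 7 genes were higher against each of the 3 control groups and 0 members were lower against each, where 10.7% and 1.35% of all genes were called higher and lower in all 3 comparisons. The edgeR counts were also 7 and 0, and at an unadjusted p under 0.05 limma had 1 member lower against TFEB-Veh and 1 against EV-Dox. The 7 genes were 1 alpha subunit, 2 catalytic beta subunits, 1 ATPase, 1 base subunit and 2 lid subunits. The number was 3 without TFEB-Dox replicate 2, 4 without EV-Veh replicate 1, and 12 without EV-Veh replicate 2 or EV-Dox replicate 3. These counts were the same against EV-Veh alone. There the 7 members higher stood near the share called among the expressed genes. On expressed-gene scaling, 25 of the 40 members with a mean of at least 200 were higher against each control and 6 lower (PSMB9, PSMC5, PSME1, PSME2, PSMG3 and PSMG4), where 29.5% and 27.1% of expressed genes were called. That mean was taken over all 12 libraries, so members such as PSMB6 and PSMD10 passed it through their TFEB-Dox values. The expressed genes passed the same cut. By library, 9 members were higher in all 3 TFEB-Dox libraries than in all 9 control libraries on the deposited scale and 0 lower, where 13.6% and 2.95% of all genes tested separated that way. On expressed-gene scaling 26 of the 40 members with a mean of at least 200 were higher and 6 lower without overlap, against 31.1% and 29% of expressed genes.

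EV-Dox was set against EV-Veh to show doxycycline without the TFEB S211A insert. On the deposited scale 42 of 49 members fell and 0 rose, by limma and with 0 higher at an unadjusted p under 0.05, where 23.3% of all genes were called lower and 3.39% higher. The edgeR test called 41 lower and 0 higher. The median log2 difference was -1.54 over the members and -1.29 over the expressed nuclear genes; of those 7290 genes 3730 were called lower. The count was 0 without EV-Veh replicate 2, 9 without EV-Dox replicate 3, 22 without EV-Dox replicate 2 and 25 without EV-Veh replicate 1. On expressed-gene scaling 10 of the 40 members with a mean of at least 200 fell and 0 rose by limma, where 17.5% and 20.9% of expressed genes were called lower and higher. Of all 49 members 3 rose on this scaling (PSMA2, PSMA6 and PSMA8, each with a mean under 200), where 44.1% of all genes tested were called higher and 5.75% lower, and 4 members rose at an unadjusted p under 0.05. The number that fell was 3 without EV-Veh replicate 2, 4 without EV-Dox replicate 3 and 4 without EV-Veh replicate 1. The 10 that fell were PSMA5, PSMA7, PSMB1, PSMB7, PSMC3, PSMC4, PSMD3, PSME3, PSMG1 and PSMG2. On the log2 scale PSMG1 fell by 0.89 (SE 0.12, limma adjusted p = 2.85e-04) and PSMB7 by 0.62 (SE 0.15, limma adjusted p = 0.0115). PSMG1 had 368, 276 and 129 in EV-Dox, against 964, 1796 and 704 in EV-Veh, without overlap. In the TFEB line the difference of PSMG1 was 0.34 on the same scaling.

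Between the vehicle groups, TFEB-Veh against EV-Veh, 0 of 49 members passed in either direction by limma on either scale, and 0% of all genes were called on the deposited scale. At an unadjusted p under 0.05 limma had 0 members higher and 1 lower, and edgeR 0 and 3, with 0 after adjustment. On expressed-gene scaling limma had 1 higher and 0 lower at that unadjusted p. The members' median log2 difference was -0.66 on the deposited scale, where it was -0.66 over the expressed nuclear genes and -0.25 over all genes tested.

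Whether the response to doxycycline differed between the lines was tested as an interaction. On the deposited scale 36 of 49 members had a higher response in the TFEB line and 0 a lower one, also at an unadjusted p under 0.05 and by edgeR, where 29.2% and 6.15% of all genes were called. Of the 40 members with a mean of at least 200, 34 were called higher, against 62.6% of the expressed genes, and 0 lower, against 0.0686%. The difference of the responses was 5.90 (SE 0.77, limma adjusted p = 1.10e-07) for PSMA7, 5.27 (SE 0.82, limma adjusted p = 3.61e-06) for PSMD8 and 4.48 (SE 0.79, limma adjusted p = 2.52e-05) for PSMB7. On expressed-gene scaling, 28 of the 40 members with a mean of at least 200 responded more in the TFEB line and 5 less, where 31.1% and 29.9% of expressed genes were called. The 5 were PSMB9 (-1.20), PSMG4 (-1.11), PSMG3 (-1.06), PSME2 (-0.82) and PSMC5 (-0.40), thus 1 immunoproteasome subunit, a subunit of its activator, a chaperone pair and 1 ATPase. Of all 49 members the counts were 29 higher and 11 lower, where 11% and 57.8% of all genes tested were called. With a mean under 200, PSMA1 was higher, and PSMA2, PSMA6, PSMA8, PSMB11, PSMC3IP and PSMD9 were lower.

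**Figure D5:**
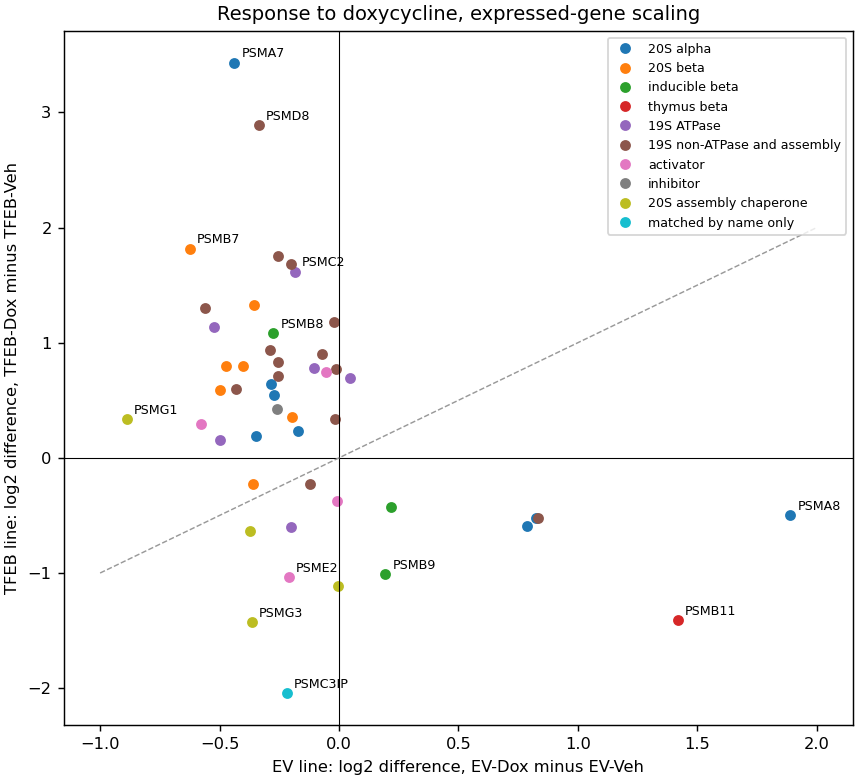
Log2 response to doxycycline of the 49 members on expressed-gene scaling, in the EV line (x axis) and in the TFEB line (y axis); the dashed line marks equal responses and colours mark roles. Most constitutive subunits lie near 0 or slightly below it on the x axis and above 0 on the y axis. PSMA7 (-0.44 and 3.43) and PSMD8 (-0.34 and 2.89) lie highest. PSMA2 and PSMA6 lie above 0 on the x axis and below 0 on the y axis. PSMB5 and PSMC5 also lie below 0 on the y axis. PSMA8 and PSMB11 are near background.

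Genes that work with the proteasome were counted in the comparison of TFEB-Dox with TFEB-Veh on the deposited scale, where 17.4% of all genes were called higher and 4.66% lower. Among the 7290 expressed nuclear genes, 2299 and 256 were called. Of 12 tested other parts and partners of the proteasome, 4 rose by limma, with a median log2 difference of 1.12 and a lowest one of -0.18 (PAAF1). They were ZFAND5, which binds and stimulates the particle (3.68), POMP, the maturation factor of the core (3.41), AKIRIN2, which carries proteasomes into the nucleus (1.93), and the lid subunit SHFM1 (1.45). POMP had 1976, 3615 and 2736 in TFEB-Dox, against 163, 311 and 319 in TFEB-Veh, 203, 155 and 83.4 in EV-Dox and 315, 729 and 300.3 in EV-Veh, with a log2 difference of 3.41 (SE 0.48, limma adjusted p = 2.84e-07). Its TFEB-Dox libraries lay above all controls without overlap, as those of PSMA7 did. For SHFM1 the groups overlapped, with 319 in TFEB-Dox replicate 1 and 367 in TFEB-Veh replicate 3. On expressed-gene scaling 4 rose and PAAF1 fell, where 34.4% and 33.2% of expressed genes, and 14.4% and 20.7% of all genes tested, were called higher and lower. The lowest gene of this and the next 3 lists is named after its value was seen.

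Of 9 factors that control proteasome genes or process their activators, 6 rose by limma, with a median of 1.76 and a lowest log2 difference of -0.41 (KEAP1, which restrains NFE2L2). The small MAF protein MAFF had 1029, 1452 and 1016 in TFEB-Dox, against 31.0, 28.9 and 39.7 in TFEB-Veh, 37.4, 23.5 and 20.6 in EV-Dox and 36.3, 22.8 and 21.3 in EV-Veh, and a log2 difference of 5.08 (SE 0.32, limma adjusted p = 4.00e-17). It was low in all 9 control libraries and high in the 3 TFEB-Dox libraries. DDI2, the protease that activates NFE2L1, rose by 2.90, MAFG by 2.42 and NFE2L1 itself by 1.89. NFE2L1 had 2085, 3891 and 2688 in TFEB-Dox, against 518, 879 and 939 in TFEB-Veh, 749, 505 and 206 in EV-Dox and 1075, 1908 and 832 in EV-Veh, again highest in the TFEB-Dox libraries. On expressed-gene scaling 6 rose and KEAP1 fell, against the same 34.4% and 33.2% of expressed genes.

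Of 6 genes of ubiquitin supply and activation, 3 rose by limma, with a median of 1.32 and a lowest log2 difference of -0.05 (UBA1, the main activating enzyme). Among them were the activating enzyme UBA6 (2.93) and the polyubiquitin gene UBB (1.12). On expressed-gene scaling 3 rose and UBA1 fell (34.4% and 33.2% of expressed genes). Of 9 shuttle and segregase genes, which bring ubiquitinated substrates to the particle, 5 rose by limma, with a median of 1.90 and a lowest log2 difference of 0.16 (UFD1L). The shuttle UBQLN2 rose by 3.61 (SE 0.49, limma adjusted p = 9.68e-08), the autophagy receptor SQSTM1 by 2.89 (SE 0.54, limma adjusted p = 5.03e-05), NPLOC4 by 2.43 and UBQLN1 by 2.36. On expressed-gene scaling 7 rose and UFD1L fell (34.4% and 33.2% of expressed genes).

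Of 12 companions of the immunoproteasome in antigen presentation, 8 rose and 1 fell by limma, with a median of 2.0; on expressed-gene scaling 8 rose and 2 fell (34.4% and 33.2% of expressed genes). Among them HLA-B rose by 2.59 (SE 0.59, limma adjusted p = 7.41e-04) and HLA-C by 2.53 (SE 0.58, limma adjusted p = 9.39e-04), both MHC class I heavy chains. HLA genes are near-identical in part and their counts are uncertain. IRF1, a transcription factor of immunoproteasome genes, was the 1 that fell and is named for that after its value was seen. It had 104, 89.3 and 91.7 in TFEB-Dox, against 162, 247 and 278 in TFEB-Veh, 224, 129 and 57.4 in EV-Dox and 270.4, 505 and 215 in EV-Veh, and fell by 1.23 (SE 0.42, limma adjusted p = 0.0292) on the log2 scale. Its TFEB-Dox libraries lay below those of TFEB-Veh without overlap but within the range of EV-Dox.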

How the data were processed

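Total RNA (NucleoSpin extraction) was made into libraries with a NuGEN Ovation kit for FFPE material, per the labels' protocols. Reads were aligned with STAR 2.5.3a and counted with HTSeq 0.6.1, per the submitters' processing notes; for genome build, annotation and strand setting the sources used here give nothing. The deposited values are a signal per gene and library that the authors made by dividing read counts by 1 factor per library: 100% of the values in each library were whole multiples of 1 step (tolerance 0.01 reads), and multiplying out gave the recovered reads. In EV-Veh replicate 2 and TFEB-Veh replicate 3 the step lay within 1% of 1 read, at 0.992 and 0.993.

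The test was limma 3.58.1 (trend, R 4.3.3) on log2 of the value plus a pseudocount of 1, for genes with a mean of at least 10, in 1 fit of the 4 groups, with Benjamini-Hochberg adjustment over 23128 genes and a threshold of 0.05; fold changes on this scale understate those of low genes. Expressed-gene scaling divided each library by its median ratio over 7290 nuclear genes (mean at or above 200). This mean included the TFEB-Dox libraries, so the cut favoured genes that were high there, among members and other genes alike. Ratios were compared by exact permutation tests. Alternatives were a pseudocount of 10, no filter, TMM scaling, scaling to equal totals, the replicate block, edgeR 4.0.16 (quasi-likelihood) on recovered reads, and leaving out each library.

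Values per library are given for PSMB5 to PSMB10, PSME1 to PSME4, PSMF1, PSMC3IP, the 12 members with the largest differences between TFEB-Dox and TFEB-Veh among those called, and the highest and lowest member of each role of 4 or more; from each other list, up to 4 called genes are named, and a few that this rule selects are not reported here. Members and lists were chosen with earlier results of these data known. Where the labels say biologically independent experiments, no further source of the replicates is given.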

Additional observations from a re-analysis of the deposited data

Results flagged for a closer look

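Among the members given with values per library, the response to doxycycline differed between the lines for those below, by the interaction test of limma over all genes tested (adjusted p under 0.05, deposited scale). The response in the TFEB line minus that in the EV line, on the log2 scale, was 5.90 for PSMA7, 5.27 for PSMD8, 4.48 for PSMB7, 4.04 for PSMD14, 3.92 for PSMD2, 3.90 for PSMD7, 3.84 for PSMC2, 3.70 for PSMB6, 3.69 for PSMC4, 3.39 for PSMB8, 3.26 for PSMD12, 3.26 for PSMG1, 3.24 for PSMD1, 2.91 for PSME3, 2.84 for PSME4, 2.72 for PSMF1 and 2.16 for PSMB5. On expressed-gene scaling PSMB5 (0.14) was not called, and the others remained called in the same direction.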

How the results depend on the processing

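A pseudocount of 10, no filter and edgeR on recovered reads left each count of members called within 1.5 times its value. Other scalings turned the sign of the members below, among them the difference of the responses of PSMC5 (1.64 on the deposited scale) and PSME2 (1.21), and the cause was not tested. With expressed-gene scaling, the log2 difference of TFEB-Dox from TFEB-Veh turned to -0.59 for PSMA6, -0.43 for PSMB10, -0.22 for PSMB5, -0.60 for PSMC5, -0.52 for PSMD9 and -0.37 for PSME1. With scaling to equal totals, the log2 difference of TFEB-Dox from TFEB-Veh turned to -0.70 for PSMA6, -0.54 for PSMB10, -0.33 for PSMB5, -0.71 for PSMC5, -0.63 for PSMD9 and -0.48 for PSME1. With TMM scaling, the log2 difference of TFEB-Dox from TFEB-Veh turned to -0.088 for PSMA6, -0.089 for PSMC5 and -0.023 for PSMD9. With expressed-gene scaling, the log2 difference of EV-Dox from EV-Veh turned to 0.79 for PSMA6, 0.22 for PSMB10, 0.19 for PSMB9 and 0.83 for PSMD9. With scaling to equal totals, the log2 difference of EV-Dox from EV-Veh turned to 0.63 for PSMA6, 0.060 for PSMB10, 0.035 for PSMB9 and 0.68 for PSMD9. With TMM scaling, the log2 difference of EV-Dox from EV-Veh turned to 0.098 for PSMA6 and 0.14 for PSMD9. With expressed-gene scaling, the log2 difference of the responses turned to -1.38 for PSMA6, -0.64 for PSMB10, -1.20 for PSMB9, -1.82 for PSMC3IP, -0.40 for PSMC5, -1.36 for PSMD9, -0.36 for PSME1, -0.82 for PSME2 and -1.06 for PSMG3. With scaling to equal totals, the log2 difference of the responses turned to -1.33 for PSMA6, -0.60 for PSMB10, -1.16 for PSMB9, -1.78 for PSMC3IP, -0.35 for PSMC5, -1.31 for PSMD9, -0.32 for PSME1, -0.78 for PSME2 and -1.01 for PSMG3. With TMM scaling, the log2 difference of the responses turned to -0.19 for PSMA6, -0.63 for PSMC3IP and -0.17 for PSMD9. With 1 library left out at a time, the difference of PSMA6 between TFEB-Dox and TFEB-Veh was -0.096 to 0.33, PSMC5 between TFEB-Dox and TFEB-Veh was -0.13 to 0.32, PSME1 between TFEB-Dox and TFEB-Veh was -0.031 to 0.59 and PSMC3IP between the responses was -0.056 to 0.47, with a sign that turned. The difference of the log2 ratio of PSMB8 to PSMB5 between EV-Dox and EV-Veh, near 0, turned to -0.0044 with a pseudocount of 10. The counts of members called that moved by over 1.5 times are for TFEB-Dox unless another group is named. With TMM scaling, members were higher for 22 against EV-Veh, 1 for EV-Dox against EV-Veh and 22 against each of the 3 controls. They were then lower for 2 against TFEB-Veh, 2 against EV-Dox, 4 against EV-Veh, 1 in the interaction and 1 against each of the 3 controls. With scaling to equal totals, members were higher for 17 against EV-Veh, 1 for EV-Dox against EV-Veh and 17 against each of the 3 controls. They were then lower for 9 against TFEB-Veh, 14 against EV-Dox, 9 against EV-Veh, 17 for EV-Dox against EV-Veh, 10 in the interaction and 8 against each of the 3 controls. With expressed-gene scaling, members were higher for 25 against EV-Veh, 3 for EV-Dox against EV-Veh and 25 against each of the 3 controls. They were then lower for 8 against TFEB-Veh, 12 against EV-Dox, 8 against EV-Veh, 10 for EV-Dox against EV-Veh, 11 in the interaction and 7 against each of the 3 controls. With 1 library left out at a time, the number higher on the deposited scale was 8 to 30 against TFEB-Veh, 33 to 38 against EV-Dox, 3 to 12 against EV-Veh, 0 for EV-Dox against EV-Veh, 0 for TFEB-Veh against EV-Veh, 34 to 40 in the interaction and 3 to 12 against each of the 3 controls. With 1 library left out at a time, the number lower on the deposited scale was 0 to 1 against TFEB-Veh, 0 to 1 against EV-Dox, 1 to 3 against EV-Veh, 0 to 44 for EV-Dox against EV-Veh, 0 for TFEB-Veh against EV-Veh, 0 in the interaction and 0 against each of the 3 controls. With 1 library left out at a time, the number higher on expressed-gene scaling was 21 to 28 against TFEB-Veh, 0 to 5 for EV-Dox against EV-Veh, 27 to 32 in the interaction and 20 to 27 against each of the 3 controls. With 1 library left out at a time, the number lower on expressed-gene scaling was 7 to 9 against TFEB-Veh, 3 to 14 for EV-Dox against EV-Veh, 8 to 10 in the interaction and 6 to 8 against each of the 3 controls. The differences in log2 ratio were 1.04 to 1.48 for PSMB8 to PSMB5, TFEB-Dox against TFEB-Veh, -0.17 to 0.34 for PSMB8 to PSMB5, EV-Dox against EV-Veh, -2.61 to -2.17 for PSMB9 to PSMB6, TFEB-Dox against TFEB-Veh, 0.31 to 0.70 for PSMB9 to PSMB6, EV-Dox against EV-Veh, -2.55 to -2.08 for PSMB10 to PSMB7, TFEB-Dox against TFEB-Veh and 0.72 to 1.09 for PSMB10 to PSMB7, EV-Dox against EV-Veh. In fits with the replicate number as a block, 11 members were higher against EV-Veh, 11 against each of the 3 controls and 25 against TFEB-Veh. Same-numbered libraries of different groups deviated together in 14 of 18 pairs (correlation over 0.1, range -0.22 to 0.72 across genes), and different-numbered ones in 10 of 36 (range -0.70 to 0.61). Of the 4 exceptions, 3 involved TFEB-Dox replicate 2. The rule used here needed every same-numbered pair, so the libraries were not treated as paired. Expressed-gene scaling with the replicate block or with a library left out was chosen after seeing the data. With 3 libraries a group, and 4474007 reads in EV-Dox replicate 3, small differences in members with low counts may not be detectable.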
